A study of Mus musculus with 4 samples.

Results

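The 10 WNT ligands read here, Wnt2b, Wnt3, Wnt4, Wnt5a, Wnt5b, Wnt6, Wnt7b, Wnt9b, Wnt10a and Wnt11, were taken by symbol from the 52459 genes of the deposited table, and all 10 were found. The table comes from RNA-seq of the first pharyngeal arch, the embryonic outgrowth that builds the jaws, of mouse embryos of E9.5-E9.75 with 25 to 27 somites. The groups were wild-type, with 2 libraries, and Wnt1-Cre;pMes-Bmp4, here also called transgenic, with 2 libraries. In the transgenic genotype, Cre under Wnt1 control, active in the neural crest and the dorsal neural tube, switches on a Bmp4 transgene, so that neither the ectoderm nor the endoderm of the arch is a direct target of the Cre. The labels name no group with Wnt1-Cre alone or pMes-Bmp4 alone and do not give the strain, so an effect of Bmp4 and an effect of the Cre, the insertion or the strain cannot be told apart. They also do not say whether the 2 libraries of a group came from separate embryos or litters, so a p-value speaks only of how far these samples spread, part of which may be technical.

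WNT proteins are secreted, lipid-modified signals. Ligands such as Wnt3, Wnt6, Wnt7b, Wnt9b and Wnt10a are best known from surface and oral ectoderm and act through Frizzled and LRP receptors to stabilise beta-catenin. Wnt5a and Wnt11 are best known for signalling through Ror and Ryk receptors and the planar cell polarity system, which orient cells and drive outgrowth, and Wnt5a is a classic signal of the facial mesenchyme.

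Total reads were 47849092 and 33763574 for the wild-type libraries and 31404494 and 29607541 for the transgenic ones. Bmp4, the gene of the transgene, was at 681.7 and 437.1 normalized reads in wild-type and 2656 and 1745 in the transgenic libraries. All 10 genes of a first arch list were detected well enough to be tested, while the 7 Hox genes of more posterior arches peaked at 5.93 normalized reads in any library. Of 14 epithelium markers, 13 were tested and none was at 0 in all libraries. Krt18 and Krt14 rose and the other 11 did not pass, with a list median log2 fold change of 0.48. Of all genes tested, 2.97% were higher. After the length correction, 0 of these markers were called higher and the median was 0.41. The summed level of the 14 was 29065 and 21835 normalized reads in wild-type and 38968 and 35727 in the transgenic libraries, which do not overlap. Of 10 neural crest mesenchyme markers 1 rose and 9 did not pass; 7 log2 fold changes were negative, the median was -0.30 and 0.04 after the correction for transcript length described with Wnt5a, and the sums of 23588 and 29794 against 33903 and 26181 overlap. Erythroid markers summed to 673440 and 612680 against 340390 and 380470, which do not overlap, and of the 5 the embryonic globins Hba-x and Hbb-y fell. Endothelium (3353 and 3318 against 4054 and 4469) and cranial mesoderm (2768 and 2693 against 3800.0 and 3708) had higher sums without overlap, with no gene of either list past the test. Several of the ligands are best known from ectoderm, and the part of these marker levels in the results that follow was not tested. In RNA of a whole arch, fewer cells of a type and less RNA per cell cannot be told apart.

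Wnt5a, the mesenchymal outgrowth signal, fell 2.03-fold in Wnt1-Cre;pMes-Bmp4 and was the only ligand of the 10 that passed the test. Wnt11, at 4.15 times its wild-type mean, and Wnt3, at 0.439 times, differed in the same direction in both transgenic libraries but did not pass. Wnt4 and Wnt6, the other abundant ligands, overlapped between the genotypes. Of the 10, 9 reached the minimum mean of 10 normalized reads and were tested, and Wnt2b did not. A call was a limma adjusted p under 0.05, and 1 ligand was lower, 0 were higher and 8 did not pass. Across all 16746 genes tested, 5.28% were lower, 2.97% were higher and 8.25% were called in either direction, so that 1 call among 9 ligands is close to the background. At an unadjusted limma p under 0.05 there were 3 of 9 ligands (Wnt5a, Wnt11 and Wnt3), beside 4816 of the 16746 genes. The edgeR test on recovered reads called Wnt5a alone, and DESeq2 called Wnt5a and Wnt11, against 7.91% and 16.8% of all genes. The median log2 fold change of the 9 was -0.18, beside 0.02 for all genes tested; 6 were negative and 3 positive. The transgenic and wild-type libraries did not overlap for 5 of the 9 ligands, beside 59.7% of all genes.

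**Figure D1:**
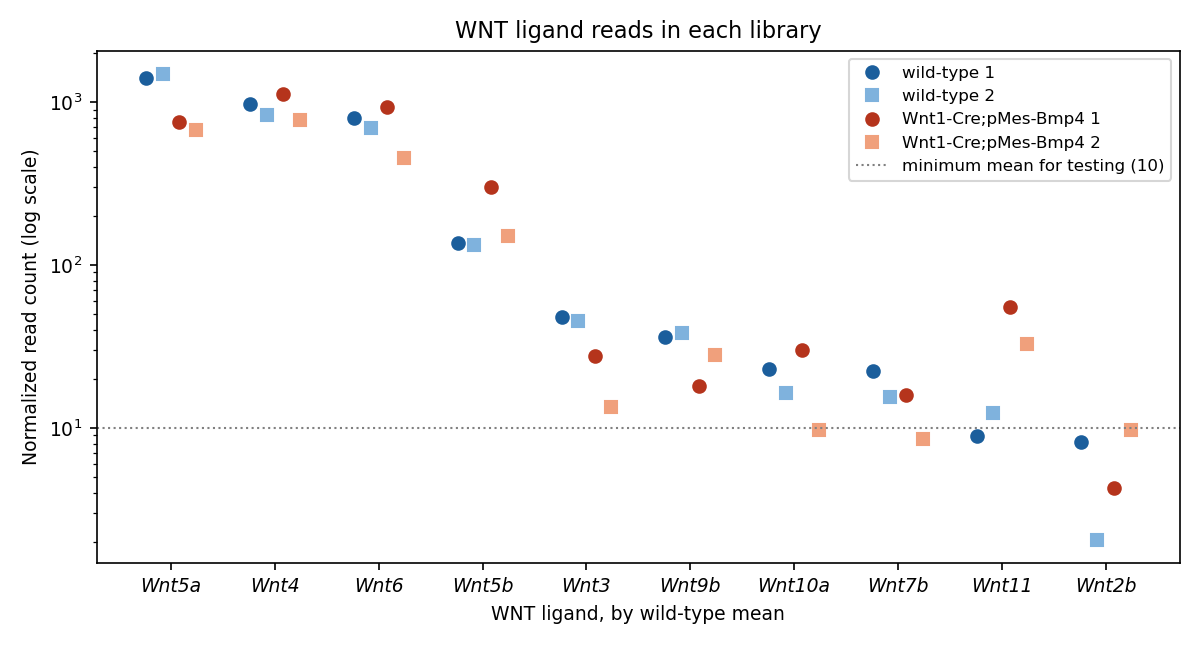
Normalized read count (log scale) of each of the 10 WNT ligands in each of the 4 libraries, with ligands ordered by their wild-type mean and a dotted line at the minimum mean of 10. Wnt5a, Wnt4 and Wnt6 stand near 1000 in wild-type, Wnt5b follows, and the other 6 lie below 60 in every library.

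Wnt5a lies on chromosome 14 at 28504750 to 28527448 of GRCm38, on the plus strand, and its longest transcript has 5 exons. It read 1414 and 1491 normalized reads in wild-type 1 and 2 and 754.0 and 680.2 in Wnt1-Cre;pMes-Bmp4 1 and 2. Both transgenic libraries were below both wild-type libraries, and the libraries of each genotype lay close together. The group means were 1453 ± 54.9 and 717.1 ± 52.2 (SD, n = 2 each), 2.03-fold lower in the transgenic group. On the log2 scale the change was -1.02 ± 0.15 (SE; limma adjusted p 0.0218); edgeR gave -1.04 with an adjusted p of 0.0186.

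The Wnt5a transcript is long, at 7010 bases the longest of the 10 ligands, and the difference between the genotypes runs with transcript length over the whole table: Spearman's rho between the log2 fold change and length was -0.394 across 12178 genes with a mean of at least 50, which are not independent replicates. After each library was corrected for a trend with length, the log2 fold change of Wnt5a was -0.59 and its limma adjusted p 0.0709, and with GC content added it was -0.63 with an adjusted p of 0.0264. With the length correction 0 of the 9 ligands passed in limma, beside 1.56% of all genes. At an unadjusted limma p under 0.05 there were then 3 ligands, beside 3959 of the 16746 genes. Leaving out wild-type replicate 1 also ended the call (log2 fold change -1.06, limma adjusted p 0.129), as did leaving out wild-type replicate 2 (-0.98, 0.348) and limma without a trend in the prior variance (-1.02, 0.145). Among all genes these settings called 0, 1 and 0, so the losses are not particular to Wnt5a, whose log2 fold change stayed near -1. The direction was the same in all 17 alternatives run. An annotated antisense gene, Gm2670, shares 358 exonic bases with Wnt5a; it read 26.0 and 25.7 in wild-type and 28.8 and 3.64 in the transgenic libraries, far below Wnt5a, and whether reads were counted by strand is not given in these sources.

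Wnt5b, the close paralog of Wnt5a, on chromosome 6 at 119432531 to 119544347 of GRCm38, had higher values where Wnt5a had lower ones. It read 135.7 and 132.7 in wild-type and 302.9 and 151.6 in the transgenic libraries. The transgenic libraries were both above wild-type, but the first was far above the second. The log2 difference of 0.67 ± 0.34 (SE) did not pass (limma adjusted p 0.245). Its size depended on 1 library, at 1.17 without transgenic replicate 2 and 0.17 without transgenic replicate 1 (limma adjusted p 0.00147 and 0.729). With 1 transgenic library left, the residual spread comes from the wild-type pair alone and the lone library is assumed to vary as they do. In these settings 3103 (without transgenic replicate 2) and 5394 (without transgenic replicate 1) of the 16746 genes passed, against 1382 with all libraries, so a small p there is no support for a gene.

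The balance of the 2 paralogs was read within each library as reads per kilobase of the longest transcript, a scale on which levels of different genes can be compared. The ratio of Wnt5a to Wnt5b was 3.52 and 3.80 in the wild-type libraries, against 0.842 and 1.52 for the transgenic ones. Wnt5a exceeded Wnt5b in both wild-type libraries, and in transgenic 1 it was below it. After the length correction the ratios were 2.98 and 2.91 against 1.02 and 1.94, and the log2 change of the ratio, the difference of the fitted changes, was -1.06 in place of -1.69. With GC content added the log2 change was -1.39. The groups did not overlap in any of the 3, but with 2 against 2 libraries an exact two-sided permutation test cannot give a p below 0.33, so the ratio is a description.

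Wnt11, another ligand of the polarity pathway, on chromosome 7 at 98835112 to 98855195 of GRCm38, showed the largest difference of the 9 without passing the test. It read 8.90 and 12.3 normalized reads in wild-type and 55.5 and 32.7 in the transgenic libraries. These rest on 12 and 12 reads against 52 and 27. Both transgenic libraries were above both wild-type libraries, and the ratio of the means was 4.15. This is 1.92 ± 0.53 (SE) as a log2 fold change (limma adjusted p 0.0647, edgeR adjusted p 0.0601). DESeq2 gave 2.06 with an adjusted p of 0.0394, and limma with robust hyperparameters 0.0477. Without transgenic replicate 2 the log2 fold change was 2.30 and without transgenic replicate 1 it was 1.55 (limma adjusted p 0.00907 and 0.0983, with the spread again from the wild-type pair alone). Without wild-type replicate 1 or 2 it was 1.71 and 2.14 (0.236 and 0.392). The length correction moved it little, to 1.85 with a limma adjusted p of 0.0967. Gm8398, an annotated gene on the opposite strand that shares 364 exonic bases with Wnt11, had no reads in any library.

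The sequence before the first Wnt11 start site is shown with that of Wnt4, whose values overlapped between the genotypes. Both hold the letters GGCGCC, the core of a BMP response element. The 250 bases come from RefSeq on GRCm38.p6, at chr7:98834862-98835111 on the plus strand for Wnt11 and chr4:137277385-137277634 on the plus strand for Wnt4, 5′ to 3′. Capitals mark GGCGCC, which reads the same on both strands, and CTTTGA, the core of a TCF/LEF site, on either strand.
Wnt11: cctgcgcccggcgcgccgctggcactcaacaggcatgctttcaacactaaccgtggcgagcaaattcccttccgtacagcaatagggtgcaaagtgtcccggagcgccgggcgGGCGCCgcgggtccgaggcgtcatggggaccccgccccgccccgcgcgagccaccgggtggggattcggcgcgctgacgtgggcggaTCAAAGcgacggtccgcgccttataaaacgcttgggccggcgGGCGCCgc
Wnt4: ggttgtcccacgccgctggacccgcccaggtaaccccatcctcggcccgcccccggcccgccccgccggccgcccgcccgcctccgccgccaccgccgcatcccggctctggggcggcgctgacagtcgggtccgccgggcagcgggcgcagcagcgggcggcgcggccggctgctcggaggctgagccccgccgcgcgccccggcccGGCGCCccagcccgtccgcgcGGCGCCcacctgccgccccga
The Wnt11 window holds GGCGCC 2 times, the nearer beginning 8 bases before the start site, and CTTTGA 1 time on the opposite strand, 50 bases before it. The Wnt4 window also holds GGCGCC 2 times and no CTTTGA. Of the 10 ligands, 7 had an entry, with 10 windows in all. GGCGCC was in 3 of the 10 windows and in 9.59% of 32817 windows of all genes; CTTTGA was in 2 of 10 and in 13.8%. The letters CAGACA, a SMAD core, were in 0 of 10 and in 17.1%, read on both strands. The 3 motifs do not overlap each other in the windows shown. These windows are rich in G and C, at 70.8% for Wnt11 and 85.2% for Wnt4, beside a median of 52.4% over all windows. The RefSeq start sites used for the windows can differ from the gene starts given with the values. The Wnt4 window runs past the gene start of 137277489, and both of its GGCGCC matches lie after that start. The Wnt11 window ends just before the gene start of 98835112. A match is a description of letters only, and Wnt5a, Wnt7b and Wnt10a had no entry.

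Wnt4 and Wnt6 were the other abundant ligands, and neither passed. Wnt4, best known from kidney and gonad development, lies on chromosome 4 at 137277489 to 137299726. It read 973.9 and 833.1 in wild-type and 1117 and 779.6 in the transgenic libraries. The wild-type libraries lie between the transgenic ones. The difference of 0.05 ± 0.21 (SE, log2) had a limma adjusted p of 0.892.

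Wnt6, an ectodermal ligand, lies on chromosome 1 at 74771892 to 74785322. It read 796.6 and 696.3 in wild-type and 940.7 and 457.1 in the transgenic libraries. The transgenic libraries were the highest and the lowest of the 4. The difference was -0.18 ± 0.32 (SE, log2; limma adjusted p 0.734). Its direction depended on 1 library: without transgenic replicate 1 it was -0.70 and without transgenic replicate 2 it was 0.34 (limma adjusted p 0.00376 and 0.242). Here too the spread comes from the wild-type pair alone, and 5394 genes passed in the first of these settings.

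Wnt10a, a ligand whose human gene is known from tooth agenesis, is the downstream neighbour of Wnt6. It lies at 74791516 to 74804179 of chromosome 1, on the same strand, with 6193 bases between the genes. It read 23.0 and 16.5 in wild-type and 29.9 and 9.70 in the transgenic libraries. This is the order of libraries seen in Wnt6, and also in Wnt4 on chromosome 4. The transgenic libraries again lay on either side of wild-type. Wnt10a differed by -0.17 ± 0.66 (SE, log2; limma adjusted p 0.885). Levels of both neighbours, per kilobase, were led by Wnt6, at 360.4 ± 34.3 (SD, n = 2) against 7.99 ± 1.87 (SD, n = 2) in wild-type.

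Wnt3 and Wnt9b are the other pair of neighbours. They lie on chromosome 11 and point away from each other, Wnt9b at 103727364 to 103749821 on the minus strand and Wnt3 at 103774150 to 103817957 on the plus strand, with 24328 bases between them. Wnt3 is needed for limb and axis formation, and loss of Wnt9b is known to cause cleft lip in mice. Both had lower values in both transgenic libraries, without passing.

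Wnt3 read 48.2 and 45.3 in wild-type and 27.7 and 13.3 in the transgenic libraries. The groups do not overlap, and the transgenic libraries differ more than the wild-type ones. For Wnt3 the log2 difference was -1.23 ± 0.49 (SE; limma adjusted p 0.153), and the length correction left it at -1.37 with 0.151. It was -1.73 without transgenic replicate 1 and -0.73 without transgenic replicate 2 (limma adjusted p 0.0103 and 0.351, with the spread from the wild-type pair alone), and -1.19 and -1.28 without wild-type replicate 1 or 2 (0.408 and 0.551).

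Wnt9b read 36.3 and 38.1 in wild-type and 18.1 and 27.9 in the transgenic libraries. The groups do not overlap, but here transgenic 2 was the higher of the transgenic libraries, the reverse of Wnt3. For Wnt9b the log2 difference was -0.70 ± 0.45 (SE; limma adjusted p 0.346).

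The windows before these start sites are shown because the pair shares its direction in these libraries. Each is 250 bases from RefSeq on GRCm38.p6, 5′ to 3′ on the strand of the gene, at chr11:103773925-103774174 (plus) for Wnt3 and chr11:103749822-103750071 (minus) for Wnt9b. All letters are lower case because none of the 3 motifs was found in either.
Wnt3: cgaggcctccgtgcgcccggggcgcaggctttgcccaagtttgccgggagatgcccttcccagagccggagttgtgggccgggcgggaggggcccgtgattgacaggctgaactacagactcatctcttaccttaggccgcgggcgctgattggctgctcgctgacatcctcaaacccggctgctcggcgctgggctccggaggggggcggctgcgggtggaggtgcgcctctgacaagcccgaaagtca
Wnt9b: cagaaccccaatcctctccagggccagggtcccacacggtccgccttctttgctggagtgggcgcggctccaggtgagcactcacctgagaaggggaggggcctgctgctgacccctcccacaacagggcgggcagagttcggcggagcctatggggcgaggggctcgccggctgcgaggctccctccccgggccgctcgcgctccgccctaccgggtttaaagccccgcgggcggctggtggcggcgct
G and C make up 68% of the Wnt3 window and 72% of the Wnt9b window.

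Wnt7b and Wnt2b were the least abundant ligands in one or both groups. Wnt7b, an oral ectoderm ligand known to set the border of Shh in the tooth field, read 22.3 and 15.4 in wild-type and 16 and 8.49 in the transgenic libraries. The groups overlap, and Wnt7b differed by -0.62 ± 0.60 (SE, log2; limma adjusted p 0.532). Wnt2b read 8.16 and 2.06 in wild-type and 4.27 and 9.70 in the transgenic libraries, from 11, 2, 4 and 8 reads. It was not tested, and a difference was not detectable at this depth.

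**Figure D2:**
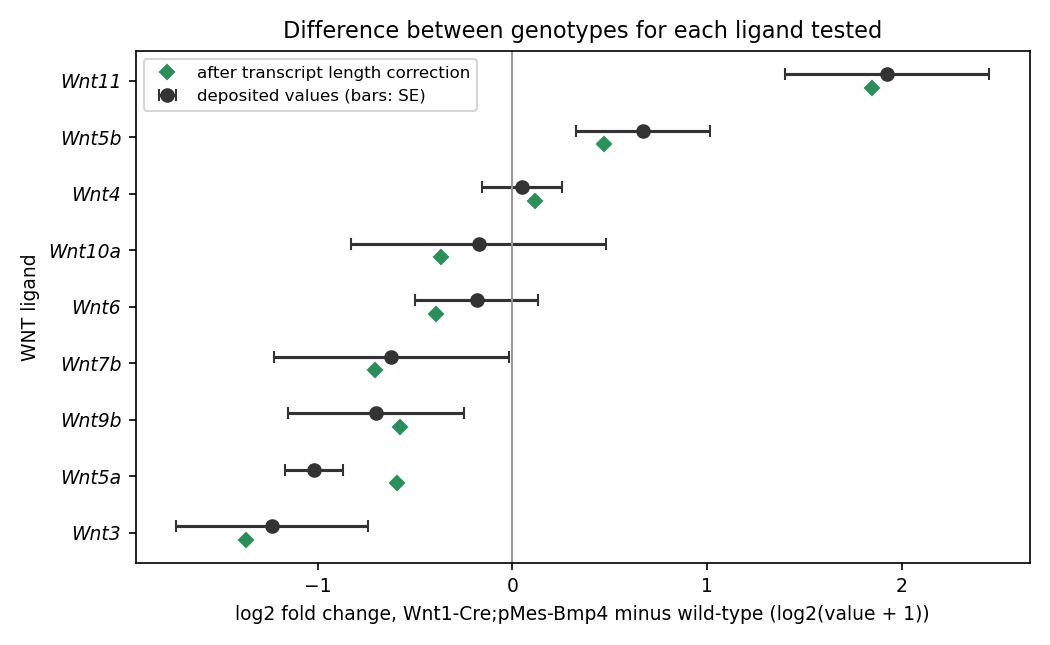
log2 fold change (Wnt1-Cre;pMes-Bmp4 minus wild-type) of the 9 ligands tested, as circles with SE bars for the deposited values and diamonds after the transcript length correction. Wnt5a has the shortest bar, at -1.02 ± 0.15, and moves the most under the correction, to -0.59, while Wnt11 stays near 1.9.

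The transgenic libraries differed from each other in the ligands more than the wild-type libraries did. Transgenic 2 was below transgenic 1 in 8 of 9 ligands tested, with Wnt9b as the exception, beside 50.4% of all genes tested. The median absolute log2 difference between the 2 transgenic libraries was 0.84 for the ligands and 0.29 for all genes tested, and between the 2 wild-type libraries it was 0.19 and 0.21. In transgenic 1 and 2 the marker sums were 38968 and 35727 for epithelium, 33903 and 26181 for neural crest mesenchyme, and 18868 and 13476 for first arch. Endothelium (4054 and 4469) and erythroid (340390 and 380470) sums were higher in transgenic 2. The part of these marker levels in the spread of the ligands was not tested. With the length and GC correction the SE of the log2 fold change, which draws on both groups, fell from 0.32 to 0.20 for Wnt6. It fell from 0.34 to 0.24 for Wnt5b and from 0.21 to 0.15 for Wnt4, and rose from 0.45 to 0.49 for Wnt9b. With length alone it was 0.32, 0.34, 0.19 and 0.46 for these ligands. Whether GC content had a part in the spread, or whether dissection or stage differed between the embryos, was not tested.

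Per kilobase of the longest transcript, the order of the ligands in wild-type was Wnt6, Wnt4, Wnt5a, Wnt5b, Wnt3, Wnt9b, Wnt10a, Wnt7b, Wnt11 and Wnt2b. Wnt4 (215.4 ± 23.7) and Wnt5a (207.2 ± 7.83) did not differ beyond their spread (SD, n = 2 each), nor did Wnt9b (8.23 ± 0.268) and Wnt10a (7.99 ± 1.87), while Wnt6 stood above all others and Wnt5b stood clear on both sides. In the transgenic group the order was Wnt6, Wnt4, Wnt5a, Wnt5b, Wnt11, Wnt10a, Wnt3, Wnt9b, Wnt7b and Wnt2b, with Wnt11 at 12.8 ± 4.66 (SD, n = 2), and Wnt5a (102.3 ± 7.45) stood beside Wnt5b (95.8 ± 45.1) within their spread. The summed level of the 10 ligands was 920.4 and 842.1 reads per kilobase in wild-type and 1003 and 596.9 in the transgenic libraries, which overlap.

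Wnt4, Wnt5a and Wnt6 together made up 88.9% and 88.8% of the summed level in wild-type and 82.6% and 84.4% in the transgenic libraries. The share of Wnt5a was 21.9% and 25.3% in wild-type and 10.7% and 16.3% in the transgenic libraries. The share of Wnt5b was 6.22% and 6.65% against 12.7% and 10.7%, and that of Wnt11 was 0.280% and 0.425% against 1.60% and 1.59%. For 6 of the 10 ligands (these 3, Wnt3, Wnt4 and Wnt7b) the shares of the groups do not overlap, and each exact two-sided permutation test gave p = 0.33, the smallest value this design allows. Wnt6 held 41.8% and 39.9% against 45.3% and 37.0%, which overlap (exact permutation p = 1). After the length correction, over the 9 ligands tested, the share of Wnt5a was 19.6% and 21.2% against 12.5% and 19.3%, so that transgenic 2 came close to wild-type. The shares of Wnt5b (6.58% and 7.27% against 12.2% and 9.95%) and Wnt11 (0.290% and 0.438% against 1.56% and 1.58%) moved less. With GC content added, the share of Wnt5a was 20.5% and 23.9% against 13.1% and 15.5%, so transgenic 2 was then further from wild-type. The share of Wnt11, unlike its level, was nearly the same in the 2 transgenic libraries.

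**Figure D3:**
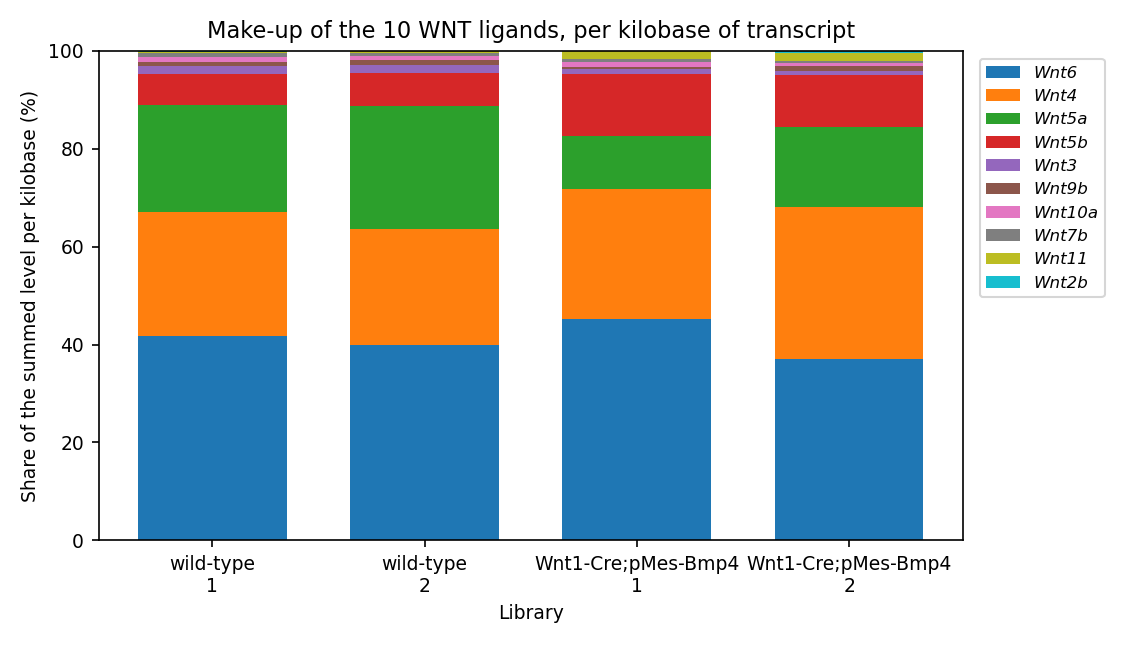
Share of each ligand (%) in the summed level of the 10 WNT ligands per kilobase of the longest transcript, in each of the 4 libraries. Wnt6 is the largest part in every library, and the part of Wnt5a is smaller in both transgenic libraries (10.7% and 16.3%) than in both wild-type libraries (21.9% and 25.3%).

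The other genes of the pathway were read in 9 lists, with 89 genes counted once, of which 73 were tested. Of these, 1 was higher (Dkk1) and 5 were lower (Lrp6, Celsr1, Apc, Gsk3b and Nkd2), beside 2.97% and 5.28% of all genes. DESeq2 called 4 higher and 14 lower, beside 16.8% of all genes in either direction. Limma without the filter on low values called 1 and 10, beside 1627 genes of the whole table in either direction. That setting tested every gene with reads, a larger set than the 16746. In the list of the other 9 WNT ligands 3 were tested and did not pass. Wnt16 had the smallest p, with 49.7 and 48.3 normalized reads in wild-type and 19.2 and 7.27 in the transgenic libraries (log2 fold change -1.95 ± 0.56 (SE), limma adjusted p 0.0751). Wnt1, whose control elements drive the Cre, had 0 and 0 reads in wild-type and 0 and 4 in the transgenic libraries.

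Genes that make and release WNT ligands did not pass in limma. Wls, which carries WNT proteins to the cell surface, read 4373 and 3354 in wild-type and 5538 and 5820 in the transgenic libraries, with the transgenic libraries above wild-type (log2 fold change 0.57 ± 0.16 (SE), limma adjusted p 0.066, DESeq2 adjusted p 0.0158). Porcn, the enzyme that adds the lipid, read 94.2 and 92.6 against 157.8 and 111.5 (0.50, limma adjusted p 0.296).

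Of 12 Frizzled and LRP receptor genes tested, Lrp6 fell and 11 did not pass, and 11 of the 12 log2 fold changes were negative. Lrp6, the co-receptor for beta-catenin signalling, read 1432 and 1626 in wild-type and 744.4 and 779.6 in the transgenic libraries. It was 2.01-fold lower (limma adjusted p 0.0219), and it did not pass after the length correction (log2 fold change -0.42, limma adjusted p 0.143) but did with GC content added (-0.47, 0.0489). Over the receptor list the median was -0.47 on the log2 scale, and -0.34 after the correction, beside 0.02 for all genes before it. Fzd6 was positive before and after the length correction (0.38 and 0.47). Fzd3 and Fzd4 became positive with it (0.40 and 0.12), and the other receptors stayed negative. The 6 alternative receptors did not pass in limma, with a median of -0.38. Among them Ror2, a receptor for Wnt5a, read 511.8 and 662.4 against 559.9 and 364.9, which overlap (limma adjusted p 0.373), and Adgra2, which with Reck serves Wnt7 ligands, gave -1.17 (limma adjusted p 0.109, DESeq2 adjusted p 0.0323). Adgra2 was at -0.87 after the length correction (limma adjusted p 0.211) and at -0.55 with GC content added (0.195).

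In the planar cell polarity list Celsr1, an atypical cadherin, fell 2.39-fold and 11 of 12 did not pass. It read 275.9 and 313.7 in wild-type and 140.8 and 105.5 in the transgenic libraries (limma adjusted p 0.0323), and its change of -1.26 on the log2 scale became -0.62 with the length correction (0.159) and -0.33 with GC content added (0.316). The list's median was -0.22. In the beta-catenin list of 15 genes, the destruction complex members Apc and Gsk3b were 2.01-fold and 1.85-fold lower (limma adjusted p 0.0218 and 0.0344). Neither passed after the length correction (0.223 and 0.206, with log2 fold changes of -0.31 and -0.37) or with GC content added (0.0676 and 0.111), and the other 13 did not pass. Their transcripts are long, at 12811 and 8303 bases. Of the 8 genes tested of the R-spondin list, Znrf3, a ligase that removes Frizzled receptors, had the smallest p (log2 fold change -1.03, limma adjusted p 0.0581, DESeq2 adjusted p 0.00522), and the list's median was 0.02. Znrf3 was at -0.67 after the length correction (limma adjusted p 0.157) and at -0.61 with GC content added (0.115).

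Among 10 feedback targets tested, which beta-catenin signalling is known to raise, Nkd2 fell and 9 did not pass. Of the log2 fold changes 9 were negative, with a median of -0.17 beside 0.02 for all genes tested. Those of Sp5, Rnf43 and Nkd1 were near 0, at -0.0096, -0.023 and -0.025. After the length correction Nkd1, Rnf43 and Apcdd1 were positive (0.018, 0.064 and 0.41), and the other targets tested kept their sign. The median was then -0.18. Nkd2, an inhibitor of Dishevelled, read 703.2 and 1047 in wild-type and 472.5 and 303.1 in the transgenic libraries, 2.26-fold lower (limma adjusted p 0.0466). Its log2 fold change of -1.18 hardly moved with the length correction (-1.15, limma adjusted p 0.0629), and it passed with GC content added (-1.09, 0.0302). Axin2, the most used readout of the pathway, read 125.4 and 192.3 against 80.0 and 33.9. The groups do not overlap, and Axin2 did not pass (log2 fold change -1.55 ± 0.45 (SE), limma adjusted p 0.0762). With DESeq2 and in limma without the filter on low values, 3 feedback targets were lower in place of 1. In the whole table these settings called 2807 and 1627 genes, against 1382 in the main test. Axin2 passed in both (DESeq2 adjusted p 0.0223, limma adjusted p 0.0434). It did not pass with edgeR (adjusted p 0.0824) or with robust limma hyperparameters (limma adjusted p 0.0518). Nor did it pass after the length correction (log2 fold change -1.48, limma adjusted p 0.102) or with GC content added to it (-1.39, 0.066). The size of its change depended on the transgenic library, at -2.16 without replicate 1 and -0.95 without replicate 2 (limma adjusted p 2.03e-07 and 0.0307, with the spread from the wild-type pair alone). Lef1 read 623.8 and 639.7 against 594.0 and 579.6, a log2 difference of -0.11 ± 0.16 (SE; limma adjusted p 0.686).

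Dkk1, a secreted antagonist that binds LRP receptors, rose, and the other 8 of 9 antagonists tested did not pass. It read 152.1 and 101.8 in wild-type and 457.5 and 522.6 in the transgenic libraries, 3.86-fold higher (limma adjusted p 0.0211). The length correction left Dkk1 past the threshold (log2 fold change 1.77, limma adjusted p 0.0367). Without wild-type replicate 1 or 2 the calls of Dkk1, Lrp6, Celsr1, Apc, Gsk3b and Nkd2 were lost with those of nearly all genes, since 0 and 1 genes of the whole table passed. Dkk1 was then at 2.25 and 1.68 on the log2 scale, Lrp6 at -1.09 and -0.91, and Nkd2, which moved more, at -1.47 and -0.89.

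**Figure D4:**
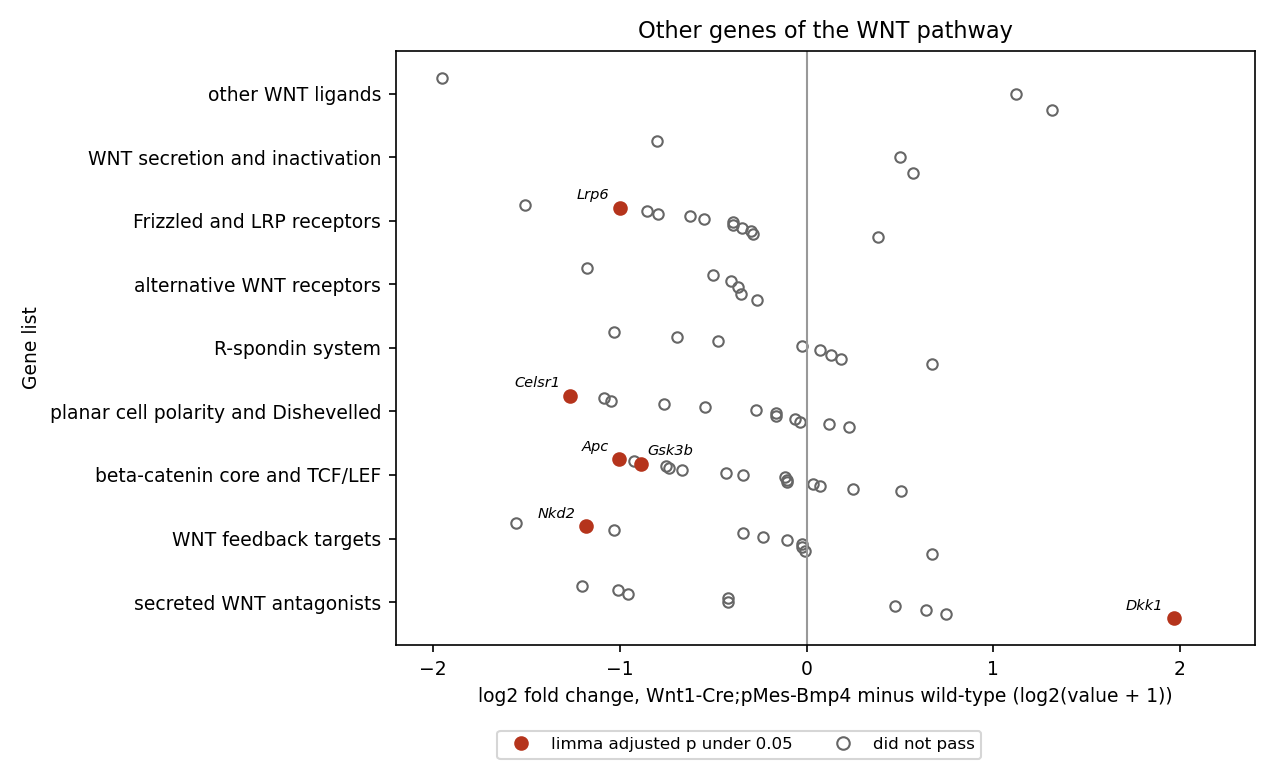
log2 fold change (Wnt1-Cre;pMes-Bmp4 minus wild-type) of the tested genes of the 9 other WNT pathway lists, 1 point per gene and list, with genes at a limma adjusted p under 0.05 filled and named. Dkk1 lies alone on the right at 1.97, and the 5 lower genes lie between -1.26 and -0.88.

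The genes whose values across the 4 libraries were most like those of Wnt5a were sought among the 81 other tested genes of the pathway lists and the ligands. Likeness was the Euclidean distance between log2 values centred on each gene's mean. The nearest were Apc at 0.0874, Lrp6 at 0.170 and Kremen1, a receptor for Dkk1, at 0.223. Apc read 1728 and 1940 in wild-type and 934.3 and 892.4 in the transgenic libraries. Apc and Lrp6 have longer transcripts than Wnt5a, at 12811 and 9368 bases, and Kremen1 has 4856. Over 4 libraries this likeness is a description.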

How the data were processed

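PolyA-selected RNA of 4 first arch libraries, 2 per genotype, was made into libraries by fragmentation and random priming, per the labels' protocols. The deposited signal per gene is, per the file headers, a featureCounts read count, and the values show it scaled by 1 factor for each library. From the submitters' processing notes come fastp 0.21.0 and mm10; aligner, annotation, strand setting and normalizing tool: not given in the sources used here. With the smallest positive value of a library taken as 1 read, 100% of values were whole reads (within 0.01).

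The main test was limma 3.58.1 (R 4.3.3), with a trend, on log2(value + 1), for genes whose mean reached 10 (16746 genes). It was two-sided with Benjamini-Hochberg adjustment over all of them and a threshold of 0.05. This scale understates the change of low genes. The fit had 2 residual and 5.26 prior degrees of freedom. Alternatives were edgeR 4.0.16 and DESeq2 1.42.0 on recovered reads (edgeR called 1324 genes), other pseudocounts, filters and scalings, each library left out, and a spline of each library's deviation on transcript length, alone or with GC content. On simulated data with 200 changed genes among the 16746, limma recovered 66.5% of 2-fold and 91.5% of 4-fold changes on average over 3 draws. The simulation gave every gene the same dispersion and averaged over genes of all levels. It therefore cannot say how often a change in these ligands, with their wider spread between the transgenic libraries, would be missed.

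Gene models were GENCODE M21 (GRCm38), using the longest transcript, and promoters were RefSeq GRCm38.p6, of which only the 250 bases before the start were used. All 10 ligands were named; of the other lists, the genes past the threshold, at most 4, or else the gene with the smallest p, and Axin2, Lef1, Wls, Porcn, Ror2, Wnt1 and Dkk1. The ligands, lists and length correction were chosen with earlier results of these data known. Figures used matplotlib 3.10.9 in Python 3.11.15.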

Additional observations from a re-analysis of the deposited data

How the results depend on the processing

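Of the WNT ligands, 0 were called higher and 1 lower. The higher count was 1 with robust limma hyperparameters, with DESeq2 and at a threshold of 0.1, and 0 to 2 with 1 library left out. The lower count was 0 in limma without the trend and after the length correction, and it moved both ways with 1 library left out. Without the trend and after the length correction, 3 ligands in either direction had an unadjusted limma p under 0.05 in each. All genes at that level numbered 3925 and 3959 of the 16746. The calls over all genes, 1382, became 0 in limma without the trend (3925 at an unadjusted p under 0.05), 2807 with DESeq2, 262 after the length correction and 3033 at a threshold of 0.1. With 1 library left out they ranged from 0 (without wild-type replicate 1, 3185 at an unadjusted p under 0.05) to 5394 (without transgenic replicate 1). With the replicate number as a block 708 genes were called and the ligand calls were the same. Libraries with the same number share only that number, and their deviations from the group means correlated at -0.147 over genes.

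The log2 fold change of Wnt10a was 0.0077 with quantile scaling and 0.21 after the length and GC correction, and -0.94 to 0.59 with 1 library left out. That of Wnt4 ranged from -0.21 to 0.31 and that of Wnt6 from -0.70 to 0.34 with 1 library left out. Where these 3 changed sign the cause was not tested. With the mean raised to at least 50, the 6 ligands of low level could not be tested. At 7 to 65 reads per library for Wnt3, Wnt7b, Wnt9b, Wnt10a and Wnt11, depth limits what can be seen. The length corrections of the ligand shares and of the Wnt5a to Wnt5b ratio were chosen after seeing the data.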
